A study of Arabidopsis thaliana with 16 samples.

Results

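A group of 79 Arabidopsis thaliana loci stood higher in both cell populations sorted with a marker of the cortex endodermis initial (CEI) than in both populations sorted from a WOX5 reporter line. The loci were selected on their expression values. Each is a nuclear locus with a single gene ID whose lower value in the CEI populations was at least 20 FPKM (fragments scaled to transcript length and library size) and at least 3 times the higher value in the WOX5 populations. They were 79 of 32654 such loci (0.242%), and 79 of the 6558 loci that reached 20 FPKM in both CEI populations (1.2%). The mirrored rule, with the populations exchanged, selected 86 of 6092 loci. Because the rule used all 4 populations, the contrast of CEI with WOX5 populations is given as a description of the selected loci, with no test.

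All cells came from root tips of about 1 mm of 5-day-old seedlings, whose cells were freed of their walls by enzymes (protoplasts) and sorted by green fluorescence, with 4 libraries for each population. C6 cells were GFP positive in the line pCYCD6:GUS-GFP, whose CYCD6;1 promoter reporter is the CEI marker. The w5C6 cells were GFP positive in wox5 x pCYCD6:GUS-GFP, the same reporter in the wox5 mutant. In wox5 the authors saw this marker extend into cortex and endodermal cells, and they describe the sorted cells as CEI and CEI-like. Between C6 and w5C6, effects of the mutation and of the cells sorted therefore cannot be told apart. W5S and W5NS cells were the GFP positive and GFP negative cells of pWOX5:erGFP, a reporter of the quiescent centre (QC). The values used here are 1 per locus and population, pooled by the authors over the libraries, with no value per library. The authors' own test results were not used, so no spread between replicates, no sequencing depth and no test is given for any difference below. C6 and w5C6 came from another reporter line than W5NS and W5S, and the effects of line and of cell population cannot be told apart. In such sorted pools, a lower value from fewer cells of a type cannot be distinguished from less RNA per cell.

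The CEI is a stem cell of the ground tissue. Its daughter divides lengthwise into a cortex and an endodermis cell, under SHR and SCR, transcription factors that switch on the cyclin gene CYCD6;1, and zinc finger proteins such as MGP act with them. Root hairs, by contrast, grow from the epidermis, further from the tip. Their outgrowth draws on wall-loosening enzymes, arabinogalactan proteins and other glycoproteins rich in hydroxyproline, secreted class III peroxidases that work on hydrogen peroxide and wall polymers, and small ROP GTPases with their activators.

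The names of the populations rest on the reporters. CYCD6;1 read 9.75 FPKM in C6 and 7.01 in w5C6, against 7.02 in W5NS and 0.828 in W5S, so its transcript was not higher in w5C6 than in the GFP negative cells of the WOX5 line. SCR read 48.9, 47.6, 17.38 and 30.9 FPKM in the same order, and WOX5 18.4, 0.0865, 42.1 and 206. The CEI populations differed from each other in marker genes of other tissues. The 5 measured endodermis markers summed to 704 FPKM in C6 and 86.0 in w5C6 (W5NS 160.3 and W5S 139), and the 6 shoot and photosynthesis markers to 17.9 in C6 and 2801 in w5C6 (23.3 and 27.8). None of these marker genes was among the 79 loci, and their part in the results below was not tested. Ratios of CEI over WOX5 populations carried a general shift, with a median log2 ratio between 0.12 and 0.17 over the 16310 loci that reached 1 FPKM in all 4 populations, and the folds given here include it.

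The lower CEI value exceeded the higher WOX5 value by a median of 3.71-fold, with a range from 3.01-fold to 92.1-fold. Most loci therefore lay close to the limit. Just inside it stood AT4G30320 (3.01-fold), AT5G15180 (3.03-fold), PYL5 (3.04-fold) and MRH1 (3.05-fold), and just outside it OFP17 (2.99-fold) and RHS14, AT5G46870 and CHIA (2.97-fold each). At the level limit, AT1G17300 was taken with 20.2 FPKM in C6, whereas AT5G28630 and RBOHB with lower CEI values of 19.6 FPKM were not. Median levels of the 79 loci were 44.9 FPKM in C6 and 43.9 in w5C6, against 8.12 in W5NS and 6.61 in W5S. Together they took 0.700% and 0.763% of the nuclear FPKM in C6 and w5C6, and 0.198% and 0.136% in W5NS and W5S. None was at 0 in any population, but 9 were under 1 FPKM in W5S and 1 in W5NS. All 79 matched the RefSeq gene table, as 76 protein-coding genes, 1 long non-coding RNA (AT4G20362) and 2 transcribed pseudogenes (AT5G36270 and AT2G20724).

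**Figure D1:**
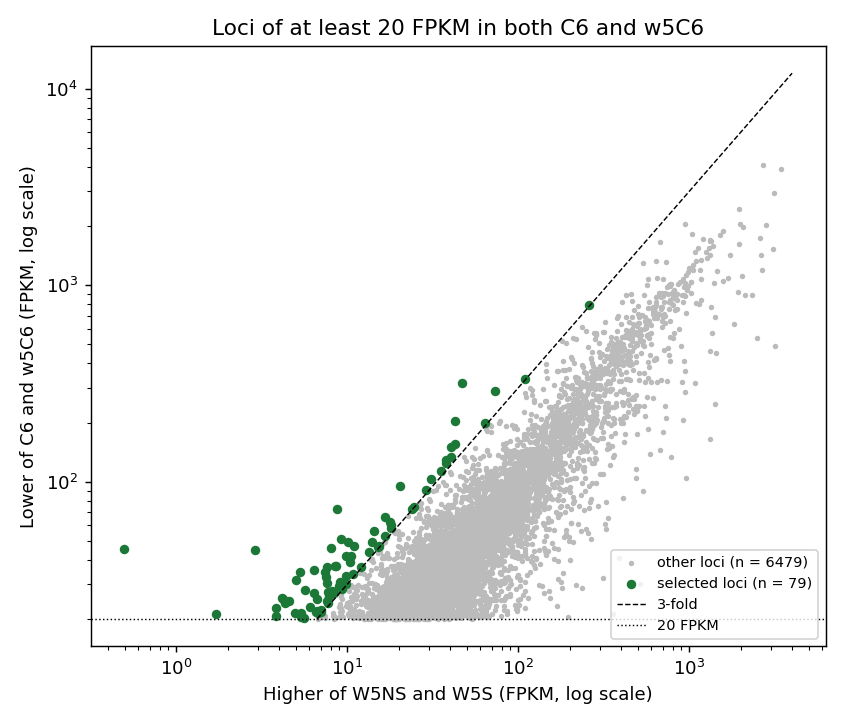
Lower value of C6 and w5C6 against the higher value of W5NS and W5S, in FPKM on log axes, for 6558 loci. The 79 selected loci (green) lie on or above the dashed 3-fold line and above the dotted line of 20 FPKM, most of them near the 3-fold line, with AIF3 far to the left at 92.1-fold.

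Several of the selected loci are known from root hair growth. RHS18 (AT5G22410), a peroxidase gene named for its root hair specific expression, read 156 FPKM in C6 and 215 in w5C6, against 40.6 in W5NS and 42.5 in W5S. COW1 (AT4G34580), a phosphatidylinositol transfer protein needed for hair tip growth, read 62.4, 75.5, 17.9 and 6.61 FPKM. MRH1 (AT4G18640), a receptor-like kinase gene named for its role in root hair morphogenesis, read 46.8, 51.3, 15.4 and 13.2 FPKM. In each of the 3 genes w5C6 was the highest population, and only in COW1 did the WOX5 populations lie far apart. ROPGEF10 (AT5G19560), an activator of ROP GTPases, read 21.4 and 24.3 FPKM in C6 and w5C6, 5.35 in W5NS and 0.289 in W5S. HA7 (AT3G60330), a plasma membrane proton pump, read 56.1, 58.2, 14.4 and 1.39 FPKM. Both were thus low in W5NS and lower still in W5S.

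The root hair genes were followed beyond the rule in a list of 45 measured genes with a root hair name or synonym in the annotation, chosen after the values were seen. It contains 3 of the 79 loci (6.67% of the list, against 0.242% of all loci). Of the 45, 28 reached 20 FPKM in both CEI populations, and 1.2% of all such loci were selected. Both CEI populations were above both WOX5 populations in 36 of the 45, against 28.9% of all 32654 loci and 44.5% of the loci of at least 20 FPKM in both CEI populations. They were below both in 5 of the 45 (10.5% of all loci). Several genes missed the 3-fold limit narrowly, among them RHS14 (36.7, 39.5, 12.3 and 1.29 FPKM in C6, w5C6, W5NS and W5S) and RHS12, a pectin methylesterase family gene (72.4, 90.3, 24.5 and 7.72 FPKM). The peroxidase gene RHS19 read 398, 499, 145 and 57.2 FPKM and PRP1, a proline-rich wall protein gene, 365, 646, 146 and 28.5 FPKM. RHD6, the transcription factor that starts hair formation, went the other way, at 6.07 FPKM in C6 and 22.7 in w5C6, against 24.2 in W5NS and 37.7 in W5S. WER and GL2, regulators of the hairless epidermal cells, were also lower in both CEI populations. WER read 14.9, 14.5, 38.6 and 33.5 FPKM and GL2 4.73, 2.95, 6.34 and 7.84 FPKM. COBL9 (81.4, 130.5, 44.3 and 74.2 FPKM) and EXPA7 (93.0, 195, 48.4 and 61.0 FPKM), which act in the growing hair, were higher in both. Of the 5 epidermis and root hair markers, 2 were thus above and 3 below, and the summed level of the markers was 200.2 FPKM in C6 and 365 in w5C6, against 162 in W5NS and 214 in W5S.

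**Figure D2:**
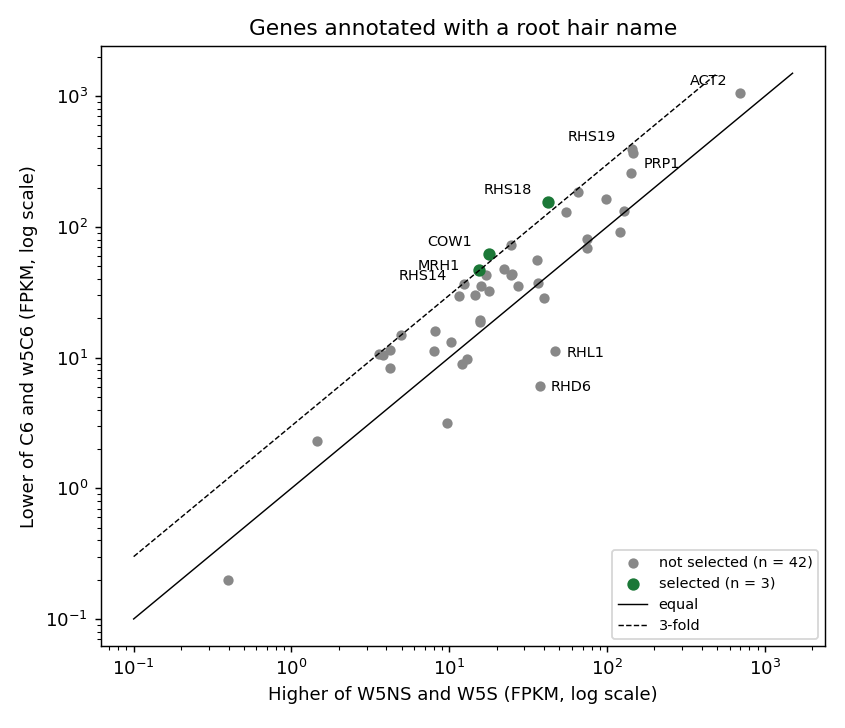
Lower value of C6 and w5C6 against the higher value of W5NS and W5S, in FPKM on log axes, for 45 genes with a root hair name. Most points lie between the solid line of equality and the dashed 3-fold line, the 3 selected genes (green) lie above the latter, and RHD6 and RHL1 lie well below equality.

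Class III peroxidases, in a list of 63 measured genes drawn up from the annotation after the values were seen, made up 6 of the 79 loci (7.59%), against 0.351% of the 6558 loci. Besides RHS18 these were AT4G26010, AT3G49960, AT5G39580, AT5G15180 and AT1G34510. AT3G49960 was the most abundant in the CEI populations, with 335 FPKM in C6 and 381 in w5C6, against 110 in W5NS and 56.4 in W5S. AT4G26010 read 290.0, 306, 73.5 and 34.7 FPKM. AT5G39580 read 60.1, 83.7, 18.1 and 7.64 FPKM, and AT1G34510 24.2, 30.8, 7.77 and 0.979 FPKM. All 6 were higher in w5C6 than in C6, and all except RHS18 were lower in W5S than in W5NS. Of all 63 listed genes, 30 were above in both CEI populations, 4 below and 29 neither, against 28.9% above and 10.5% below over all loci. Over the 6558 loci 44.5% were above. Members of this family are similar in sequence and can exchange reads. These genes lay near the 3-fold limit, and with the populations scaled to a common nuclear sum, which left 31 loci selected, none of the 6 peroxidase genes and none of the root hair list passed the rule.

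Sequences upstream of 4 selected loci are printed on the strand of the gene, to show the elements counted below. They were read by locus ID from the TAIR10.1 assembly with its RefSeq annotation, since the files name no genome build, and run 5′ to 3′ up to the base before the annotated start of the gene. Capitals mark matches to the TATA box (TATAAA), the auxin element (TGTCTC) or the root hair element, a longer motif of hair-expressed promoters, on either strand. The first 3 are the members with a root hair element, in full (250 bases) or from 60 bases before the start, and the last is a peroxidase promoter with a TATA box close to the start.
RHS18: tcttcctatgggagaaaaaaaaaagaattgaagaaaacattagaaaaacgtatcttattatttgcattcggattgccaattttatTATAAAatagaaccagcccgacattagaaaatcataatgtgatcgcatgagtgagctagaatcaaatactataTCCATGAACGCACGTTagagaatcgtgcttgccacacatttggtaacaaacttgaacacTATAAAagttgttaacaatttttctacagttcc
AT3G48940: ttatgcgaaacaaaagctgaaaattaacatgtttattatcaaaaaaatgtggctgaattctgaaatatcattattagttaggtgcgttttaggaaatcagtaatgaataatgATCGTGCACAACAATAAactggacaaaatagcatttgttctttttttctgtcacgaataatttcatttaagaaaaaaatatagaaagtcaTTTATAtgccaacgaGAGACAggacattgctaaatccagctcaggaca
ROPGEF10: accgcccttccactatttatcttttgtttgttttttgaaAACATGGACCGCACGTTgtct
AT1G34510: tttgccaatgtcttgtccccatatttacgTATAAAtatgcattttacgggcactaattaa

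The root hair element, searched after the values were seen, occurred in 3 of 79 windows from 250 bases before to 50 after the start (3.80%), against 0.795% of the 32217 windows of all genes and 1.13% of the loci of at least 20 FPKM in both CEI populations. Among the 45 genes with a root hair name it occurred in 11 (24.4%), but RHS genes were first collected partly by this element. The matches in RHS18 and ROPGEF10 share the letters GCACGTT, of which the motif itself fixes CACG. The match in AT3G48940, a remorin gene, lies on the opposite strand. The TATA box occurred in 53 of 79 windows (67.1%), against 53.3% of the 6558-locus set and 50.2% of all genes. Site II (TGGGCC), an element of genes for ribosomal proteins and cell proliferation, occurred in 2 windows (2.53%), those of AT3G13175 and HSP23.6-MITO, against 22.9% and 13.9%. No ribosomal protein gene was among the 79 loci, whereas such genes made up 3.96% of the 6558 loci. Other elements were found at shares of the selected loci, the 6558 loci and all genes as follows. The GCC-box (GCCGCC) stood at 6.33%, 2.75% and 2.70% (the first at 3.80% in the 250 upstream bases alone and 2.78% with a minimum of 40 FPKM), the G-box (CACGTG) at 7.59%, 10.03% and 6.86%, and the W-box (TTGAC) at 54.4%, 51.8% and 50.04%. The IDD element (TTTGTCG), a motif of the protein family of MGP, stood at 5.06%, 4.58% and 4.15%. The evening element (AAAATATCT) stood at 5.06%, 2.93% and 2.62%, the telo-box (AAACCCTA) at 3.80%, 6.92% and 6.23%, the auxin element at 8.86%, 13.1% and 14.0%, and the short heat shock element (GAANNTTC) at 12.7%, 11.4% and 11.2% (the first at 5.06% in the 250 upstream bases alone). The long heat shock element was in no window of the selected loci. All motifs were searched on both strands, and the long heat shock element contains the short one.

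Wall proteins and wall enzymes included the most abundant locus. AGP12 (AT3G13520), an arabinogalactan peptide, had the highest level of all 79 loci in the CEI populations, with 1017 FPKM in C6 and 792 in w5C6, against 259 in W5NS and 224 in W5S. FLA6 (AT2G20520), a fasciclin-like arabinogalactan protein, read 199, 258, 40.02 and 64.2 FPKM. XTH13 and XTH26 encode xyloglucan endotransglucosylase/hydrolases, which cut and rejoin wall xyloglucan. XTH13 read 125, 187, 38.0 and 7.19 FPKM and XTH26 64.6, 41.8, 10.6 and 1.60 FPKM. The hydroxyproline-rich glycoprotein gene AT5G19800 read 90.2, 169, 28.8 and 7.01 FPKM, and CWLP, a linker of wall and plasma membrane, 48.3, 47.1, 10.9 and 9.66 FPKM. In XTH13, XTH26 and AT5G19800 the W5S value lay far below that of W5NS, while in FLA6 it was the higher.

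**Figure D3:**
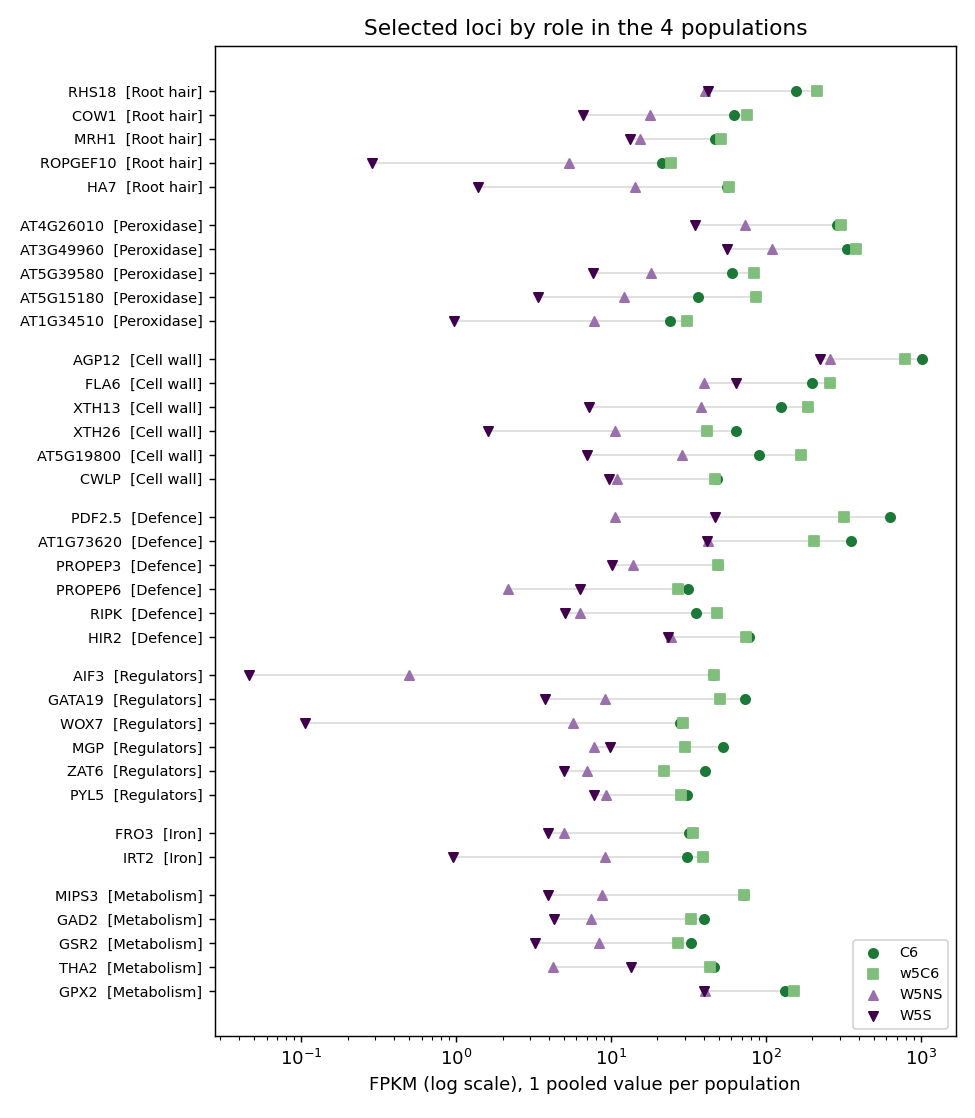
FPKM (log axis) of 35 selected loci in C6, w5C6, W5NS and W5S, 1 pooled value each, grouped by role. The green symbols of C6 and w5C6 nearly coincide for most genes, while the purple symbols of W5NS and W5S lie far apart for ROPGEF10, HA7, XTH26, WOX7 and IRT2.

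Some of the selected loci are known from defence and danger signalling, a grouping made after the values were seen and with no background share. PDF2.5 (AT5G63660), a small cysteine-rich defensin, read 634 FPKM in C6 and 317 in w5C6, against 10.6 in W5NS and 46.9 in W5S, and the thaumatin family gene AT1G73620 353, 204, 42.5 and 41.6 FPKM. PROPEP3 and PROPEP6 encode precursors of elicitor peptides, which are released on damage. PROPEP3 read 49.4, 49.4, 13.9 and 10.1 FPKM and PROPEP6 31.5, 27.1, 2.17 and 6.36 FPKM. RIPK (AT2G05940), a receptor-like cytoplasmic kinase of immune signalling, read 35.6, 48.6, 6.37 and 5.06 FPKM, and HIR2 (AT3G01290), named for the hypersensitive response, 77.6, 74.7, 24.5 and 23.4 FPKM. TCH3 (AT2G41100), a calmodulin-like gene induced by touch, read 66.4, 68.7, 16.7 and 13.5 FPKM. PDF2.5 and PROPEP6 were higher in W5S than in W5NS, the others named in this paragraph lower. Walls were digested and cells sorted in all 4 populations, and any part of that handling in these levels was not tested.

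Transcriptional regulators numbered 7 by product description (8.86%, against 4.39% of the 6558 loci), with ZAT6 as a further one whose description in the table is incomplete. AIF3 (a synonym of AT3G17100 in the gene table), annotated as a DNA-binding transcription factor, showed the largest ratio of all, with 45.6 FPKM in C6 and 46.6 in w5C6, against 0.495 in W5NS and 0.0460 in W5S. GATA19 (AT4G36620), a zinc finger factor, read 73.2, 50.8, 9.20 and 3.74 FPKM. WOX7 (AT5G05770), a homeobox gene of the same family as WOX5, read 28.0, 29.1, 5.70 and 0.107 FPKM. It was lowest in W5S, where WOX5 was highest, but alike in C6 and w5C6, where WOX5 read 18.4 and 0.0865 FPKM. MGP (AT1G03840) was the only one of 12 measured ground tissue regulators among the 79 loci (8.33%, against 0.242% of all loci). Of the 12, 6 reached 20 FPKM in both CEI populations, and 1.2% of all such loci were selected. MGP read 52.7, 30.3, 7.76 and 9.91 FPKM. ZAT6 (AT5G04340), a zinc finger protein of phosphate and stress responses, read 40.3, 22.1, 7.03 and 4.96 FPKM. PYL5 (AT5G05440), of the family of abscisic acid receptors, read 31.0, 28.4, 9.35 and 7.77 FPKM. AT4G39780, AT5G62900 and AT4G37240 completed the annotated factors, with lower CEI values of 37.2, 22.7 and 21.6 FPKM.

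The iron list had 2 of its 24 measured genes among the 79 loci (8.33%, against 0.242% of all loci). Of the 24, 7 reached 20 FPKM in both CEI populations, and of all loci that did, 1.2% were selected. FRO3 (AT1G23020), a ferric reductase, read 31.7, 34.1, 5.01 and 3.94 FPKM, and IRT2 (AT4G19680), a metal transporter of the epidermis, 30.8, 39.3, 9.13 and 0.962 FPKM. Over the list, 12 of 24 genes were above in both CEI populations and 1 below, against 28.9% and 10.5% of all loci. Above in both were 44.5% of the 6558 loci. Among enzymes of metabolism, MIPS3, which makes inositol phosphate, read 72.6 FPKM in both C6 and w5C6, 8.71 in W5NS and 3.91 in W5S. GAD2, a glutamate decarboxylase, read 40.05, 32.7, 7.48 and 4.28 FPKM, and GSR2, a cytosolic glutamine synthetase, 32.9, 27.1, 8.36 and 3.23 FPKM. THA2, a threonine aldolase, read 46.4, 43.9, 4.26 and 13.5 FPKM, with W5S above W5NS. GPX2, a glutathione peroxidase of another family than the class III enzymes, read 133, 151, 40.4 and 40.2 FPKM.

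Lists of other pathways held 1 member or none. The heat stress list had 1 of 17 measured genes, HSP23.6-MITO (5.88%, against 0.242% of all loci). Of the 17, 12 reached 20 FPKM in both CEI populations, and 1.2% of all such loci were selected. None came from the lists of endodermal barrier (8 measured), suberin (13), growth regulating factors (12), gibberellin (24), jasmonate (26), lignin (17) or auxin genes (21). Beside a share of 0.242% over all loci, none in lists of this size says little about these pathways. The lignin genes nonetheless were above in both CEI populations in 14 of 17 (28.9% of all loci, 44.5% of the 6558 loci). Their median log2 ratio of lower CEI over higher WOX5 value was 0.66, against -0.09 for all loci and -0.07 for the 6558 loci. Auxin genes were below in both in 12 of 21 (10.5% of all loci), with a median of -1.78. AN3, a coactivator of cell proliferation, was at 184, 161, 26.8 and 89.0 FPKM and was not selected, since W5S kept the ratio at 1.81-fold. A further 11 of the 79 loci (13.9%) had a product described only as uncharacterized, hypothetical or of unknown function, against 5.15% of the 6558 loci, with GSR2 counted among them by its product text.

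The rule did not set the ratio of w5C6 to C6 or that of W5S to W5NS directly, and both are given beside the background. It did limit them, since it used the lower CEI and the higher WOX5 value. A locus much lower in w5C6 could fail it, such as CYP94B1 (87.9, 30.5, 14.0 and 11.3 FPKM in C6, w5C6, W5NS and W5S). The 6558 loci met only the minimum of 20 FPKM, so the differences in share below can partly follow from the selection. Between C6 and w5C6, which differ in the wox5 mutation and can differ in the cells sorted, 75 of 79 loci were within 2-fold (94.9%). This was much as in the 6558 loci (94.7%). AT3G15450 (149.9 FPKM in C6 and 358 in w5C6), AT5G15180 (36.7 and 86.4) and AT1G17300 (20.2 and 45.9) were at least 2-fold higher in w5C6. These 3 of 79 (3.80%) compare with 0.961% of the 6558 loci. Among loci whose lower CEI value lay between the quartiles of the 79 loci, it was 1 of 39 selected loci (2.56%) against 0.949% of 2949. Among loci of like level in the WOX5 line, a set described below, the order was the other way, with 1 of 39 (2.56%) against 7.68% of 4781. That set has no minimum level in C6 or w5C6, the populations of this ratio. HSP23.6-MITO, a mitochondrial small heat shock protein gene, was the only one at least 2-fold lower (70.8 and 21.8 FPKM), against 4.33% of the background, and PDF2.5 fell just short of 2-fold. The median log2 ratio on FPKM + 1 was 0.14, against -0.05 in the background, and 50 of 79 loci were higher in w5C6 (63.3%, against 43.7%). The next highest ratios were those of AT5G19800, AT3G01730 (24.2 and 43.3 FPKM) and AT5G42785 (58.2 and 103). The next lowest after PDF2.5 were those of ZAT6, AT1G73620, MGP and AT2G41810 (46.0 and 27.7).

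The populations of the WOX5 line differed more. On FPKM + 1, 24 of 79 loci (30.4%) were at least 2-fold lower in W5S than in W5NS, against 2.91% of the 6558 loci. Most selected loci were low in this line, where ratios scatter more. The same count was therefore made, after the values were seen, over all 4781 loci whose higher WOX5 value lay between the quartiles of the 79 loci (6.64 to 17.3 FPKM). There 9.87% were at least 2-fold lower, against 11 of the 39 selected loci in that range (28.2%). With a pseudocount of 5 in place of 1, 10 of the 79 loci were at least 2-fold lower (12.7%), against 1.63% of the 6558 and 2.93% of the 4781 loci. At least 2-fold higher in W5S were 4 of 79 (5.06%, against 3.8% of the 6558 loci), namely PDF2.5, THA2, PROPEP6 and AT3G13175. At like level this order turned round, with 2 of 39 selected loci (5.13%) against 7.93% of the 4781. The median log2 ratio of W5S over W5NS was -0.42 for the selected loci and 0.03 for the 6558 loci. In W5S 61 of 79 were lower (77.2%, against 47.3% of the 6558 loci). The 6558 loci were not matched in level for either comparison.

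On FPKM + 1, 9 loci were at least 4-fold lower in W5S (11.4%, against 0.427% of the 6558 loci, which were not matched in level). In log2 bins starting at -3, -2.75, -2.5 and -2.25 lay 0%, 2.53%, 3.80% and 5.06% of the 79 loci. Of the 4781 loci of like level, the same bins held 0.774%, 0.146%, 0.209% and 0.502%. The 9 loci were HA7, WOX7, IRT2, ROPGEF10, XTH13, XTH26, AT1G34510, AT3G48940 (25.7, 32.5, 4.15 and 0.210 FPKM) and the pseudogene AT5G36270 (24.8, 33.6, 4.55 and 0.222 FPKM). On FPKM alone AIF3, AT2G39690 (25.4, 28.8, 4.23 and 0.412 FPKM), AT5G38550 (23.1, 27.4, 6.10 and 0.828 FPKM), AT4G20860 (29.4, 29.5, 8.99 and 2.11 FPKM) and AT5G19800 also passed 4-fold. Among the 45 genes with a root hair name, 14 were at least 2-fold lower in W5S (31.1%) and 2 at least 2-fold higher (4.44%), against 9.87% and 7.93% of the 4781 loci above, which were matched in level to the 79 loci and not to these genes.

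**Figure D4:**
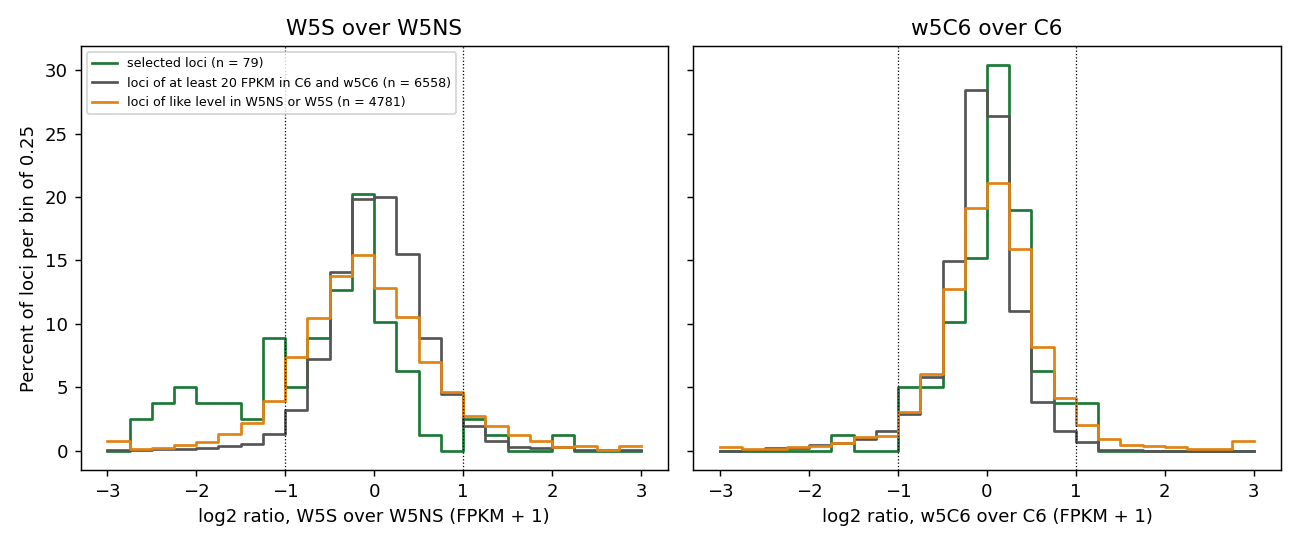
Distribution of log2 ratios on FPKM + 1, W5S over W5NS (left) and w5C6 over C6 (right), as percent of loci per bin of 0.25, for the 79 selected loci (green), 6558 loci of at least 20 FPKM in C6 and w5C6 (grey) and 4781 loci of like level in W5NS or W5S (orange). End bins collect more extreme values, and the green line carries a second rise below -1 on the left but stays close to 0 on the right.

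All 5 chromosomes held selected loci. Chromosome 1 held 10 (12.7%, against 24.96% of the 6558 loci), chromosome 2 also 10 (12.7%, against 15.1%) and chromosome 3 held 19 (24.1%, against 20.4%). Chromosome 4 held 17 (21.5%, against 15.2%) and chromosome 5 held 23 (29.1%, against 24.4%). In the order of coding genes and pseudogenes, 1 adjacent pair occurred, and it held the largest and the second largest fold. AIF3 and AT3G17090, a protein phosphatase 2C family gene at 44.8 FPKM in C6 and 54.1 in w5C6, against 2.88 in W5NS and 2.30 in W5S, lie on the same strand of chromosome 3. Next to AIF3 lies the transcribed pseudogene AT3G17110, at 4.15 FPKM in C6 and 0.714 in w5C6 and listed at 0 in W5NS and W5S. On the other side AT3G17080 read 2.55, 0.623, 0.319 and 0.282 FPKM. Beyond the pseudogene, AT3G17120 read 26.8, 24.3, 20.6 and 21.5 FPKM, with little difference between the lines, but the gene after it, AT3G17130, was again higher in both CEI populations, at 11.6, 14.6, 4.55 and 1.51 FPKM. Whether the pattern at these adjacent genes belongs to the cell populations or to the reporter lines cannot be told apart.

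**Figure D5:**
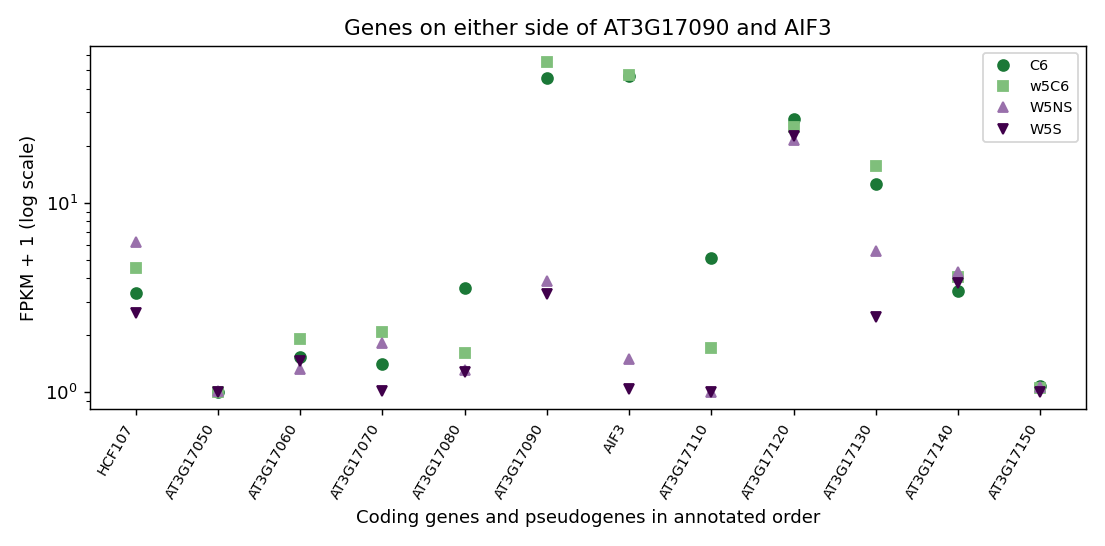
FPKM + 1 (log axis) in C6, w5C6, W5NS and W5S of 12 coding genes and pseudogenes in annotated order around AT3G17090 and AIF3. The green and purple symbols separate widely at AT3G17090 and AIF3, nearly coincide at AT3G17120 and separate again at AT3G17130.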

How the data were processed

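cDNA of sorted protoplasts was made by SMART-Seq amplification of low-input RNA and sequenced as 100 bp single ends by the authors. Within TuxNet, fastq-mcf served for trimming, HISAT2 for alignment and Cufflinks for expression estimates, and both of the latter stand in the submitters' processing notes. The sources used here name no tool version, build or gene models. For 33201 loci, a single value for each population was deposited by the authors and is read here as FPKM, a unit inferred from the pipeline since the header names none. The other 12 deposited columns hold the authors' own log2 fold changes and q-values of 6 comparisons and were not used. No value per library was used, so depth is unknown and neither an interval nor a test is given.

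Loci with several gene IDs (282) and organellar loci were left out. The rule was applied to FPKM as deposited, and ratios were taken as log2(FPKM + 1), which understates changes of low genes. Names, products and gene order came from RefSeq on TAIR10.1, and promoters were read by locus ID from that assembly. Annotation classes were matched by words of the product text. The members and lists were chosen with earlier results of these data known, and the root hair list, peroxidase list, root hair element, coding gene order and level-matched background were added after the values were seen. Genes were named by their rank in ratio, level, w5C6 over C6 or W5S over W5NS, by list or class, and by nearness to a limit, and not all of these are reported. RHS12, RHS19, PRP1 and RHL1, the selected loci CWLP, HIR2, PROPEP3, TCH3, GAD2, GSR2, COW1 and AT5G36270, the genes beside AIF3 and the grouping by role were picked after the values were seen. Scripts were tested on simulated data. Python 3.11.15, pandas 2.3.3, NumPy 2.4.6 and matplotlib 3.10.9 were used.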

Additional observations from a re-analysis of the deposited data

How the results depend on the processing

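No paired analysis was possible because only 1 pooled value per population was used, and leaving out replicates was not possible for the same reason. The number of selected loci, 79, depended on the limits. It was 142 with a minimum of 10 FPKM, 36 with 40 FPKM, 312 with a 2-fold and 30 with a 4-fold limit. Scaling the populations by the median ratio left 50 loci and scaling to a common nuclear sum 31, all of them within the 79. No gene of the root hair list and no class III peroxidase was left with the 4-fold limit or the common sum (0 of each). ROPGEF10, which is not in that list, passed the 4-fold limit at 4.00-fold. The share at least 2-fold lower in W5S than in W5NS was 12.7% with a pseudocount of 5, with a median log2 ratio of -0.26. The share at least 2-fold higher in W5S was 1.60% with the 2-fold limit and 1.27% with a pseudocount of 5. The share at least 2-fold higher in w5C6 was 0% with a 4-fold limit, with the common sum, or when counted at 3-fold. The share lower in w5C6 was 8.86% counted at 1.5-fold and 0% with 40 FPKM, the 4-fold limit or either scaling. The share in a fixed gene list was 0% with 40 FPKM. With the 2-fold limit 2 loci neighboured another in the full annotation order, against 0 as reported. The share of promoters with a GCC-box was 3.52% with 10 FPKM, 2.78% with 40 FPKM, 3.21% with the 2-fold limit and 3.80% in the 250 upstream bases alone. The share with a short heat shock element was 5.06% in those bases, 6% with the median ratio and 6.45% with the common sum. The cause of these changes was not tested. Counts and shares have no sign, so a reversal could be seen only in the median log2 ratios, which kept theirs. With the 2-fold limit the share higher in W5S lay below the 3.8% of the 6558 loci. With the 4-fold limit the share higher in w5C6 lay below their 0.961%.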

Other observations

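Selected loci of little-described function included some of the largest ratios. AT4G09100, a RING/U-box protein gene, read 21.1 FPKM in C6 and 23.57 in w5C6, against 1.46 in W5NS and 1.70 in W5S, and AT5G24570, an uncharacterized protein gene, 44.9, 34.5, 3.48 and 5.33 FPKM. The non-coding RNA AT4G20362 read 46.0, 52.7, 8.07 and 5.53 FPKM. The remorin genes AT3G48940 and AT5G23750, whose products sit at the plasma membrane, were both selected, the latter at 95.6, 95.7, 20.3 and 17.8 FPKM. The CAP family genes AT4G25790 (129, 204, 37.9 and 11.9 FPKM) and AT4G30320 (72.6, 108, 24.1 and 8.72 FPKM), which encode secreted cysteine-rich proteins, were both higher in w5C6 than in C6 and lower in W5S than in W5NS.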
